A study of Mus musculus with 24 samples.

Results

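Amino acid transporters are membrane proteins that carry amino acids into and out of cells, and 10 of their genes were followed here in mouse liver. They were chosen by name, as the rows of the deposited count table whose symbol is Slc1a4, Slc1a5, Slc3a2, Slc7a1, Slc7a2, Slc7a5, Slc38a1, Slc38a2, Slc38a3 or Slc38a4. All 10 were found among 56205 gene rows, each in a single row, and all 10 passed the filter on low counts that kept 14109 genes for testing. Poly(A) RNA of whole liver had been sequenced from C57BL/6J mice fed a control diet (12 libraries) or a methionine-choline deficient (MCD) diet (12 libraries) for 20 weeks. By its name an MCD diet lacks choline and methionine, an essential amino acid, and such diets are used to model steatohepatitis with fibrosis. Apart from diet the groups share strain and feeding time, and each held males and females in equal number, although no single library carries a sex, an age or a batch in its labels. The study's methods list this diet as high in fat, and its account of the mouse work names a diet of defined amino acids without choline, so the feed may differ from the control feed in more than methionine and choline. Feeds of that second kind usually hold a reduced amount of methionine, so whether methionine was absent or only low cannot be told from these sources. The series' design counts as many animals as there are libraries, and each library was taken as a separate animal.

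The liver takes up amino acids from portal blood for protein synthesis, glucose production and urea formation. Hepatocytes do so largely with sodium-coupled carriers of the Slc38 family, of which the system N carrier Slc38a3 (SNAT3) moves glutamine, histidine and asparagine and the system A carriers Slc38a1, Slc38a2 and Slc38a4 (SNAT1, SNAT2 and SNAT4) move alanine and other small neutral amino acids. Slc1a4 and Slc1a5 (ASCT1 and ASCT2) exchange neutral amino acids, Slc1a5 being a main route for glutamine in dividing cells. Slc3a2 (CD98, the 4F2 heavy chain) is a glycoprotein that binds a light chain and brings it to the cell surface, and Slc7a5 (LAT1) is the light chain that carries leucine, methionine and other large neutral amino acids. Slc7a1 and Slc7a2 (CAT1 and CAT2) carry arginine, lysine and ornithine. Several of these genes are known targets of ATF4, a transcription factor made when amino acids run short, which binds the C/EBP-ATF response element as a dimer.

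The sequence of that element was looked for in the promoters of these genes. Its core was read as TGATGNAA on either strand, N being any base. RefSeq promoter windows (GRCm38.p6, 250 bases before to 50 after a start site) were given for 5 of the 10 genes, namely Slc1a4, Slc3a2, Slc7a1, Slc38a2 and Slc38a4, in 8 windows. The core was found in 1 of these windows, that of Slc1a4, and in 3.97% of all 32851 windows, or 4.51% of all genes with a window. The Slc1a4 match begins 4 bases before the start site and reads on the strand opposite to the gene. The 30 bases around it, at chr11:20332699-20332728 on the minus strand, are shown 5′ to 3′ with the match in capitals:
Slc1a4: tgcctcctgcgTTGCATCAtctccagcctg
The 30 bases are the RefSeq reference, not a read from these mice. No match in the other windows says only that these letters are not there, and known elements of this kind can also lie in introns or farther away.

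Across the 10 genes the diets differed in both directions. In MCD livers Slc1a5, Slc7a1 and Slc38a1 rose, Slc38a3 and Slc38a4 fell, and the other 5 did not pass the threshold, which asked for a false discovery rate (FDR, after Benjamini and Hochberg) of at most 0.01 and a log2 fold change beyond 0.5 in either direction in edgeR's quasi-likelihood test. The same threshold was passed by 38.3% of all genes tested, with 19.2% higher and 19.1% lower, against which the 5 of 10 are to be read. Without the fold limit the FDR was passed by 6 of the 10, the sixth being Slc3a2, and by 52.4% of all genes tested. In 4 of the 10 (Slc1a5, Slc7a1, Slc38a3 and Slc38a4) no MCD library overlapped a control library on the scale of CPM, the reads of a gene per 1e6 reads of its library, against 14.4% of all genes tested (9.5% higher and 4.88% lower). These used trimmed mean of M-values (TMM) library scaling. TMM factors of the control libraries, 0.642 to 0.973, all lay below those of the MCD libraries, 1.07 to 1.26, and scaling by total counts alone would move the log2 fold changes up by 0.36 at the median, so each difference is relative to the TMM scale. The calls over all genes were 2712 higher and 2688 lower on the TMM scale, 3261 and 1710 with upper-quartile factors and 4539 and 848 on total counts alone. Total counts ran from 16793207 to 24915175 in control and from 16388650 to 24577848 in MCD libraries. Control replicate 12 stood apart by its low factor of 0.642.

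These are levels of whole liver, in which fewer cells of a type and less RNA per cell cannot be told apart, and markers of several cell types moved with diet. All 6 hepatocyte markers were present, and their summed level was 71237 to 175831 CPM in control and 54085 to 77565 CPM in MCD libraries, with 3 of 6 lower. The 6 markers of monocyte-derived macrophages were all higher, with sums of 20.1 to 82.4 and 632 to 1336 CPM. Of the mesenchymal markers 6 of 7 were higher and 1 was lower (160 to 525 and 710 to 1222 CPM). The 4 cholangiocyte markers were higher (3.71 to 14.8 and 40.0 to 95.6 CPM), as were 5 of 5 proliferation markers (3.67 to 14.5 and 19.4 to 32.3 CPM), 4 of 5 T and NK cell markers (1.84 to 8.32 and 7.04 to 18.1 CPM), 3 of 3 tested neutrophil markers (2.24 to 6.96 and 12.1 to 31.6 CPM) and 1 of 3 B cell markers (2.46 to 7.67 and 5.29 to 10.3 CPM). Among Kupffer cell markers 4 of 5 were lower (137 to 423 and 81.3 to 297 CPM), and among endothelial markers also 4 of 5 (170 to 250 and 97.5 to 155 CPM). Their part in the rise of Slc1a5, Slc7a1 and Slc38a1 and in the fall of Slc38a3 and Slc38a4 was not tested. Ly6g, which defines neutrophils, had 0 counts in every control library and 0 to 3 in MCD libraries (median 1), too few to be tested.

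**Figure D1:**
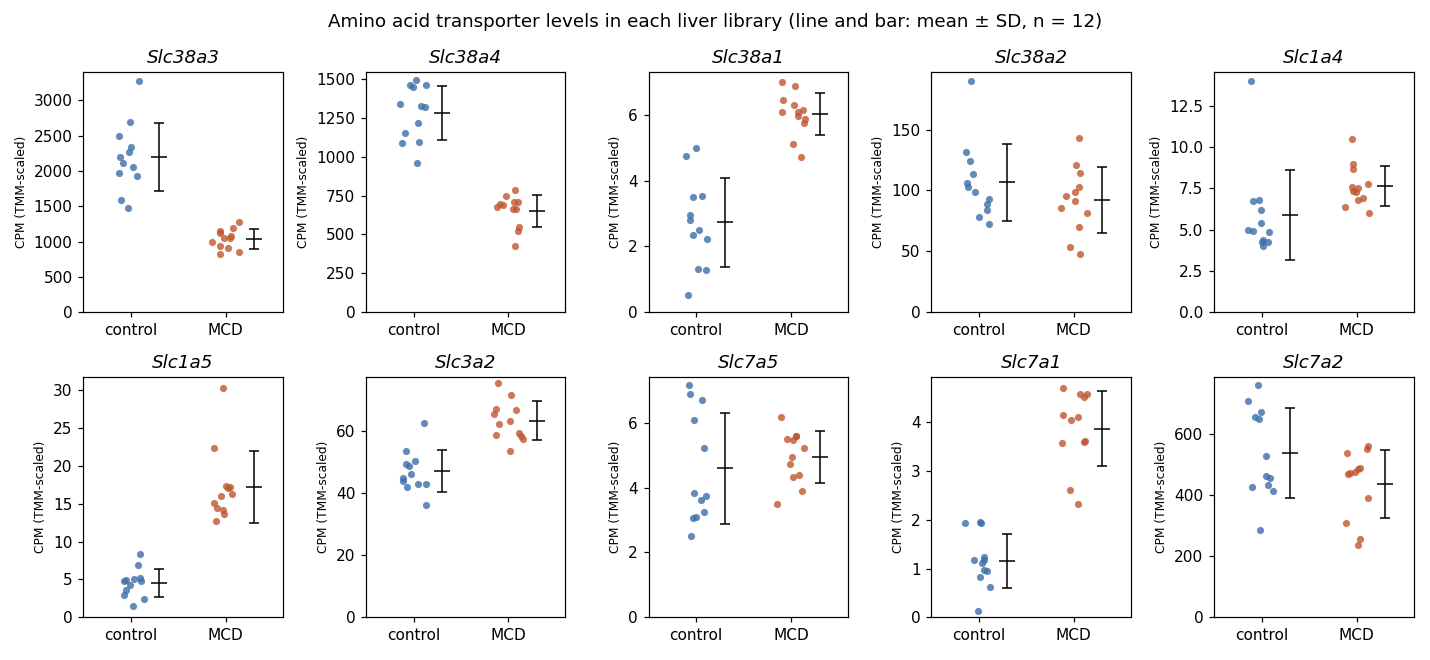
Level of each transporter gene in every library, in TMM-scaled CPM on a linear axis from 0, for control and MCD livers; each point is a library and the bar beside it is the mean ± SD of 12. Slc38a3 and Slc38a4 are lower and Slc1a5 and Slc7a1 higher in MCD livers without overlap, while the points of Slc38a2, Slc7a2, Slc7a5 and Slc1a4 overlap.

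Levels of different genes were compared only per transcript length, as TPM, which divides counts by the length of the longest annotated transcript and scales each library to the same sum. In control livers the order of medians was Slc38a3 (1118 TPM), Slc38a4 (555), Slc7a2 (115), Slc3a2 (28.4), Slc38a2 (27.9), Slc1a5 (2.76), Slc1a4 (2.19), Slc7a5 (1.77), Slc38a1 (0.678) and Slc7a1 (0.286). Slc38a3 alone made up 60.2% of the summed TPM of the 10 genes in the median control library, and Slc38a4 another 30.3%. The order of medians was the same in MCD livers. Neighbours that could not be ordered in control livers were Slc3a2 and Slc38a2 (Slc3a2 higher in 5 of 12 libraries), Slc1a5 and Slc1a4 (7 of 12) and Slc1a4 and Slc7a5 (6 of 12). Slc38a3 exceeded Slc38a4, Slc38a4 exceeded Slc7a2, and Slc7a2 exceeded Slc3a2 in all 12 control and all 12 MCD libraries. Among MCD livers Slc1a5 stood above Slc1a4 in 12 of 12 libraries, with medians of 12.4 and 4.12 TPM.

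**Figure D2:**
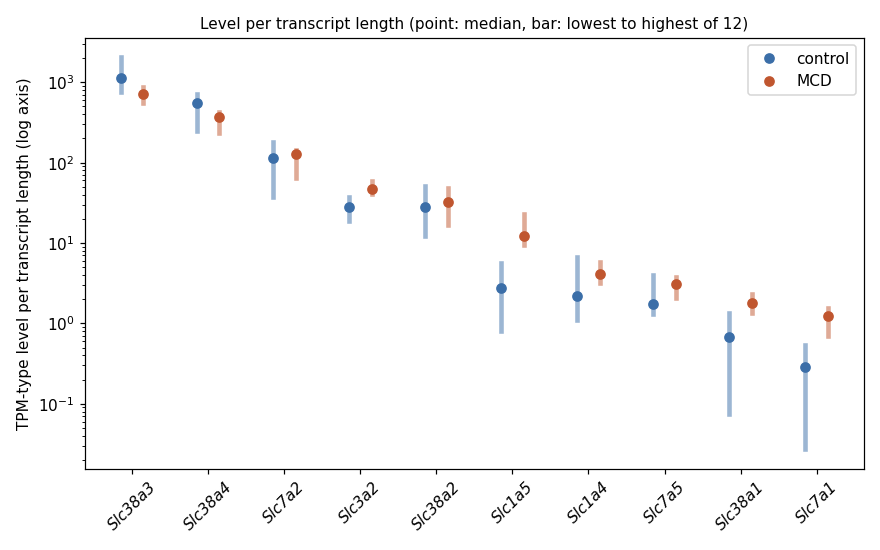
Level per transcript length (TPM, log axis) of the 10 genes, ordered by the control median; points are medians and bars run from the lowest to the highest of 12 libraries in each diet. The 3 genes on the left, Slc38a3, Slc38a4 and Slc7a2, have the highest medians in both diets, although the control ranges of Slc7a2 and Slc38a2 overlap, and the order of the medians is the same in both.

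Slc38a3 (ENSMUSG00000010064, chr9:107650634-107669530, minus strand, GRCm38) was the most abundant of the 10. Its level ran from 1476 CPM through a median of 2153 to 3279 CPM in control libraries, and from 817 through 1051 to 1283 CPM in MCD libraries. On the scale of TMM-scaled CPM every MCD library was below every control library. The TPM ranges overlapped, at 764 to 2043 in control and 555 to 871 in MCD libraries. The means were 2199 ± 483 and 1035 ± 141 CPM (SD, n = 12 each), a 2.12-fold lower level in MCD livers. On the log2 scale the difference, MCD minus control, was -1.09 (standard error, SE, 0.11; 95% interval -1.31 to -0.86, edgeR FDR 4.34e-09). On total counts alone it was -0.73, still past the threshold. Slc38a3 lies in the most abundant 1% or so of tested genes on the TPM scale in both diets, at percentile 99.3 in control and 98.7 in MCD.

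Slc38a4 (ENSMUSG00000022464, chr15:96994820-97055956, minus strand), the system A carrier known for its high level in liver, fell as well. Control libraries held 961 to 1491 CPM (median 1322) and MCD libraries 423 to 783 CPM (median 682), with no overlap on that scale. The TPM ranges overlapped, at 251 to 724 in control and 231 to 425 in MCD libraries. The means were 1280 ± 176 and 652 ± 103 CPM (SD, n = 12 each). MCD minus control was -0.97 on the log2 scale (SE 0.10, 95% interval -1.17 to -0.77, edgeR FDR 3.3e-09), or 1.96-fold lower. The lowest levels of Slc38a4 were those of MCD replicate 2 at 423 CPM, MCD replicate 8 at 521 CPM and MCD replicate 11 at 550 CPM. In control livers the lowest was replicate 12, at 961 CPM. On total counts alone the log2 fold change was -0.63.

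Slc38a1 and Slc38a2, which lie beside Slc38a4 on chromosome 15, did not follow it. Slc38a1 (ENSMUSG00000023169, chr15:96571418-96642913, minus strand) had 0.530 to 4.98 CPM in control libraries (median 2.65) and 4.73 to 6.98 CPM in MCD libraries (median 6.08). In 11 of 12 MCD libraries it was above every control library. The means were 2.72 ± 1.34 and 6.03 ± 0.642 CPM (SD, n = 12 each), with a log2 fold change of 1.13 (SE 0.21, 95% interval 0.70 to 1.57, edgeR FDR 4.34e-05). Slc38a1 varied widely among control livers, with a coefficient of variation of 49.3%, and little among MCD livers, with 10.7%. Its counts were low, 7 to 89 per control library (median 48) and 119 to 177 per MCD library.

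Slc38a2 (ENSMUSG00000022462, chr15:96687392-96699730, minus strand), whose product SNAT2 is the system A carrier best known for its induction by amino acid shortage, did not pass the threshold. Its level ran from 72.4 to 190.3 CPM in control livers (median 101) and from 47.5 to 143 CPM in MCD livers (median 93.5), and the groups overlapped broadly. The difference was -0.22 on the log2 scale (SE 0.16, 95% interval -0.55 to 0.12, edgeR FDR 0.247), and its sign turned to 0.12 on total counts alone. A rise of more than 0.12 on the log2 scale therefore lies outside the interval on the TMM scale. The lowest 3 MCD libraries for Slc38a2 were again replicates 2, 8 and 11, at 47.5, 53.5 and 70.2 CPM.

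Among the neutral exchangers Slc1a5 (ENSMUSG00000001918, chr7:16781340-16798274, plus strand) had the largest rise of the 10 genes. Control libraries held 1.5 to 8.32 CPM (median 4.79) and MCD libraries 12.8 to 30.3 CPM (median 16.1). No library of either diet lay within the range of the other. The means were 4.55 ± 1.86 and 17.2 ± 4.79 CPM (SD, n = 12 each), a 3.77-fold higher level. MCD minus control was 1.91 on the log2 scale (SE 0.19, 95% interval 1.51 to 2.31, edgeR FDR 4.2e-09). Its highest level was that of MCD replicate 4, at 30.3 CPM, and the next that of MCD replicate 2, at 22.3 CPM. On the TPM scale Slc1a5 stood at percentile 31.6 of tested genes in control and at percentile 59.9 in MCD livers.

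Slc1a4 (ENSMUSG00000020142, chr11:20302180-20332713, minus strand), the gene whose promoter held the match shown above, had 4.02 to 14.0 CPM in control livers (median 4.92) and 6.02 to 10.5 CPM in MCD livers (median 7.43). Its log2 fold change of 0.37 (SE 0.16, 95% interval 0.04 to 0.71, edgeR FDR 0.049) did not pass the threshold. Here 8 of 12 control libraries were below every MCD library, but control replicate 4, at 14.0 CPM, was above all of them. Without control replicate 4 the log2 fold change was 0.56 (edgeR FDR 8.62e-05), past the threshold, and on total counts alone it was 0.70 (edgeR FDR 0.0021). Over the alternatives that kept all libraries its FDR ran from 0.0021 to 0.057, and leaving out any single library other than control replicate 4 did not bring it past the threshold.

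The CD98 heavy chain gene Slc3a2 (ENSMUSG00000010095, chr19:8706882-8723369, minus strand) differed between the diets by an amount that depended on the scaling. Its level was 36.1 to 62.8 CPM in control livers (median 45.7) and 53.7 to 75.5 CPM in MCD livers (median 62.8). In 11 of 12 control libraries it was below every MCD library, the exception being control replicate 12 at 62.8 CPM. The means were 47.0 ± 6.77 and 63.3 ± 6.29 CPM (SD, n = 12 each), and the log2 fold change was 0.43 (SE 0.08, 95% interval 0.27 to 0.58, edgeR FDR 2.05e-05), which is under the fold limit. It passed the limit with upper-quartile factors (0.58), with total counts alone (0.80), with at least 10 counts in every library (0.51) and without control replicate 12 (0.51).

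Slc7a5 (ENSMUSG00000040010, chr8:121881150-121907694, minus strand), the light chain that carries methionine with the heavy chain, had 2.5 to 7.17 CPM in control livers (median 3.77) and 3.50 to 6.18 CPM in MCD livers (median 5.08). The diets differed by 0.10 on the log2 scale (SE 0.16, 95% interval -0.23 to 0.44, edgeR FDR 0.594), which did not pass the threshold. Over the alternatives that kept all libraries the log2 fold change of Slc7a5 ran from 0.10 to 0.46, and none brought it past the threshold. The MCD libraries all lay inside the control range. The spread was wider in control livers, with a coefficient of variation of 37.1% against 16.1% in MCD livers.

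The cationic carriers differed from each other. Slc7a1 (ENSMUSG00000041313, chr5:148327410-148399904, minus strand), broadly expressed but scarce in hepatocytes, rose in MCD livers. It had 0.130 to 1.96 CPM in control libraries (median 1.14) and 2.32 to 4.69 CPM in MCD libraries (median 4.08), with no overlap. The means were 1.16 ± 0.553 and 3.86 ± 0.765 CPM (SD, n = 12 each), and the log2 fold change was 1.71 (SE 0.23, 95% interval 1.25 to 2.17, edgeR FDR 3.12e-07). The counts behind this were 2 to 43 per control library (median 19.5) and 57 to 127 per MCD library (median 93). Control replicate 10 had the lowest, with 2 counts, under the floor of 3 counts taken as the least that a library resolves. Such a floor covers counting error only.

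Slc7a2 (ENSMUSG00000031596, chr8:40862396-40922308, plus strand), the cationic carrier of hepatocytes and of activated macrophages, was far more abundant than Slc7a1, with median levels of 115 and 0.286 TPM in control livers. Its level was 288 to 760 CPM in control libraries (median 495) and 236 to 559 CPM in MCD libraries (median 474). The log2 fold change was -0.30 (SE 0.16, 95% interval -0.63 to 0.02, edgeR FDR 0.0997), not past the threshold, and 0.03 on total counts alone. The 3 lowest MCD libraries were replicates 2 (236 CPM), 8 (256 CPM) and 11 (309.9 CPM), and the lowest control library was replicate 12 (288 CPM). Exons of Slc7a2 overlap the predicted gene Gm26584 on the opposite strand, and although the study names a stranded library kit, whether counting used strand is not stated, so a part of its reads may belong there. Counts per gene do not separate its splice forms.

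**Figure D3:**
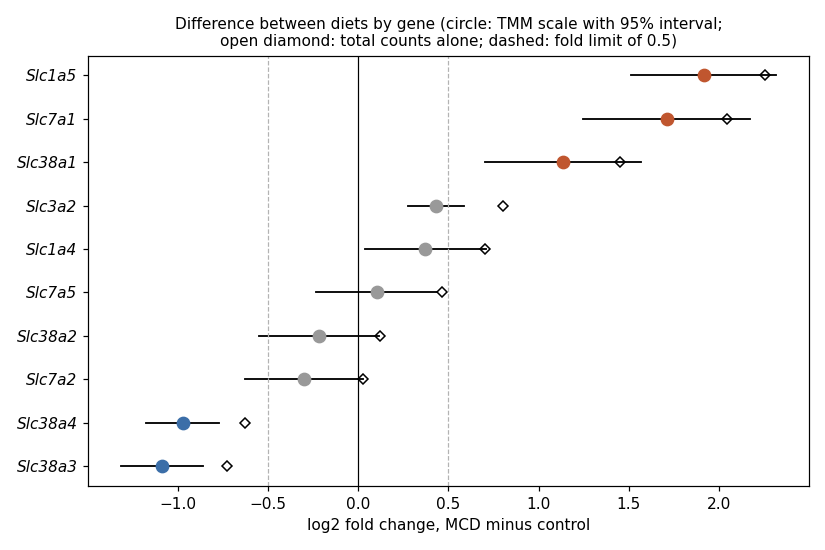
Log2 fold change of each gene, MCD minus control, from edgeR on the TMM scale (circles, with 95% intervals; orange higher, blue lower, grey not past the threshold) and on total counts alone (open diamonds); dashed lines mark the fold limit of 0.5. Slc1a5 (1.91), Slc7a1 (1.71) and Slc38a1 (1.13) are to the right of the limit and Slc38a4 (-0.97) and Slc38a3 (-1.09) to its left on both scales, while Slc7a2 and Slc38a2 lie on either side of 0 depending on the scale.

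Variation among animals of the same diet was described next, after subtracting the mean of each diet from log2 CPM. These correlations have no test. Their points share library, depth and scaling, and any difference between males and females was not removed. The correlations are given over 24 libraries. Over the 45 pairs of the 10 genes the median Pearson's r was 0.17, and 6 pairs were above 0.5. Such an r need not hold within each diet. Slc1a4 and Slc7a1, for example, had 0.42 over all libraries, 0.59 within control and -0.58 within MCD livers. Over all libraries Slc7a2 and Slc38a4 varied together most closely, with an r of 0.88, and had 0.85 within control and 0.90 within MCD livers. Slc38a2 was close to both, with an r of 0.76 with Slc7a2 (0.56 within control and 0.92 within MCD livers) and 0.71 with Slc38a4. These are the 3 genes whose lowest MCD libraries were replicates 2, 8 and 11. Slc3a2 went the other way from Slc38a4, with an r of -0.52, and had its highest level in MCD replicate 2 (75.5 CPM). Slc1a5 and Slc7a1, which both rose with diet, had an r of 0.79 over all libraries, but of 0.90 in control and 0.27 in MCD livers, and the difference between the diets was not tested.

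**Figure D4:**
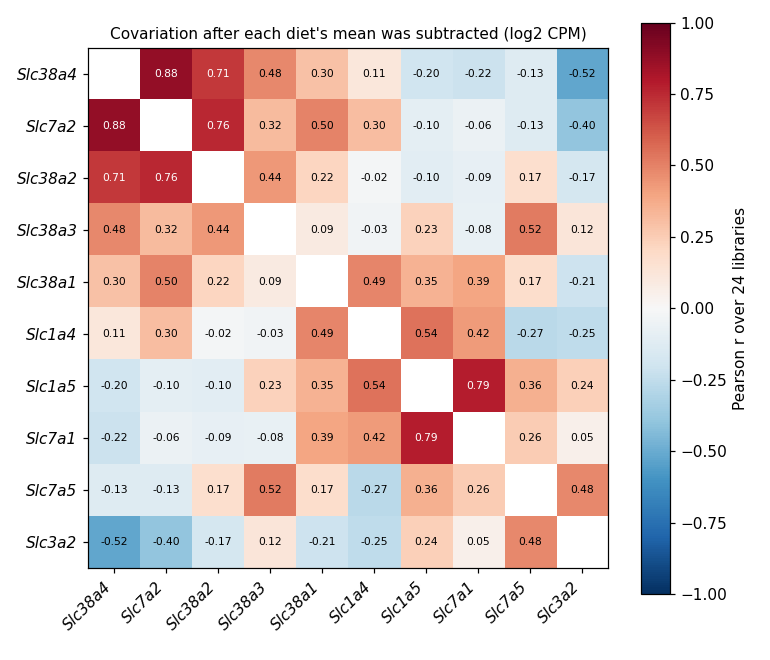
Pearson's r between each pair of the 10 genes over 24 libraries, from log2 CPM after each diet's mean was subtracted; red is positive and blue negative. Slc38a4, Slc7a2 and Slc38a2 form a block with r from 0.71 to 0.88, and the pair Slc1a5 and Slc7a1 reaches 0.79.

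The genes outside the 10 whose levels were most like theirs by the same measure were named for each gene, among genes with a mean of at least 5 CPM. For Slc38a4 they were Sfxn1 (r = 0.91), a mitochondrial serine carrier, and Cps1 (0.89), the first enzyme of the urea cycle, and for Slc7a2 they were Pck1 (0.86), an enzyme of glucose production, and Cps1 (0.84). For Slc38a3 they were Tmem25 (0.87) and Tmem86b (0.86). For Slc38a2 the kinase Pim3 (0.83) was among them. For Slc38a1 they were Msn (0.93), which encodes moesin, and the myosin Myo9a (0.93), and for Slc1a5 the cytokine receptor chain Il2rg (0.81) and the kinase Pak1 (0.81). For Slc7a1 they were the collagen gene Col5a1 (0.84) and Ahnak (0.83), and for Slc1a4 the collagen gene Col5a2 (0.82) and the lipase Lpl (0.79). For Slc3a2 they were Mtch1 (0.84) and the zinc carrier Slc39a3 (0.79), and for Slc7a5 Hpcal1 (0.83) and the nuclear receptor Ppard (0.80). These are likenesses of level over all 24 libraries, without a test, and they were not computed within each diet.

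Because CD98 takes part in amino acid transport together with a light chain, Slc3a2 was related to each light chain gene tested, within each diet. In control livers log2 CPM of Slc3a2 and Slc7a5 correlated with a Pearson's r of 0.51 (n = 12, two-sided permutation p = 0.0915, or 0.393 after adjustment for the 10 relations). Spearman's rho for them was 0.53 (permutation p = 0.0795, or 0.427 adjusted). In MCD livers r was 0.41 (permutation p = 0.176, or 0.393 adjusted) and rho was 0.36 (permutation p = 0.256, or 0.512 adjusted). When the 2 libraries with the most extreme Slc3a2 levels were left out, r in control livers was 0.69 (permutation p = 0.0336, or 0.168 adjusted) and r in MCD livers 0.25 (permutation p = 0.484, or 0.806 adjusted). With the same libraries left out, Slc7a11 in control livers had the largest r in size, of opposite sign, at -0.73 (permutation p = 0.0126, or 0.126 adjusted). Control libraries held 0 to 7 counts of Slc7a11 (median 1), most of them under the floor of 3 counts, so its r there is poorly resolved. None of the 10 relations, with Slc7a5, Slc7a6, Slc7a7, Slc7a8 and Slc7a11 in both diets, passed an adjusted p of 0.05. Among the others r over all 12 libraries of a diet ran from -0.40 to 0.50.

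The other 4 light chains that were tested rose in MCD livers, beside 19.2% higher over all genes tested. For Slc7a11, the cystine carrier xCT, control libraries counted 0 to 7 reads (median 1) and MCD libraries 33 to 102 (median 63.5). It rose by 4.55 on the log2 scale (SE 0.36, edgeR FDR 5.17e-11), a size that rests on control counts near the floor. Slc7a6 (y+LAT2), an exchanger of cationic for neutral amino acids, rose by 2.49 on the log2 scale (SE 0.31, edgeR FDR 9.7e-08), with 1 to 21 reads in control and 33 to 84 in MCD libraries. Slc7a7 (y+LAT1), of the same function, rose from 4.77 ± 1.08 to 10.6 ± 1.99 CPM (SD, n = 12 each), a log2 fold change of 1.14 (SE 0.12), and Slc7a8 (LAT2) by 0.82 (SE 0.20). Slc7a10 was too low to be tested.

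Of 40 further amino acid carriers of the plasma membrane 17 were abundant enough to be tested, and 6 of them were higher and 4 lower in MCD livers, with a median log2 fold change of 0.07 against -0.10 for all genes tested, of which 19.2% were higher and 19.1% lower. Beside the 4 light chains above, Slc43a2 (LAT4), a carrier of branched-chain amino acids, methionine and phenylalanine, rose by 1.22 (SE 0.15, edgeR FDR 6.7e-08), and Slc7a4, an orphan relative of the cationic carriers, by 0.73 (SE 0.20, edgeR FDR 0.00222). Those that fell were Slc6a12 at -0.99 (SE 0.12), a carrier of betaine, Slc6a13 at -0.66, a carrier of taurine and GABA, Slc3a1 at -0.70, a heavy chain related to Slc3a2, and Slc16a10 at -0.64, a carrier of aromatic amino acids. Betaine is a methyl donor made from choline. Slc6a12 had 59.5 to 154 CPM in control and 42.9 to 57.1 CPM in MCD libraries, without overlap on that scale. Its TPM ranges overlapped, at 42.3 to 92.2 in control and 33.6 to 46.2 in MCD libraries. Exons of Slc3a1 and Slc7a7 overlap a gene on the opposite strand, as do those of Slc7a4 and Slc43a2, and their values are uncertain to that extent. On total counts alone only 1 of these carriers was past the threshold as lower.

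Carriers of amino acids across the membranes of mitochondria and lysosomes were lower or not past the threshold. Of 12 tested, 0 rose and 4 fell, with a median log2 fold change of -0.42, beside 19.2% higher, 19.1% lower and a median of -0.10 over all genes tested. Slc25a44, the mitochondrial carrier of branched-chain amino acids, had the largest fall, at -1.29 (SE 0.09, edgeR FDR 1.5e-11), from 72.0 to 156 CPM in control to 36.3 to 49.1 CPM in MCD libraries. Slc38a7 (-0.65), a lysosomal glutamine carrier, Slc25a13 (-0.62), the mitochondrial aspartate-glutamate carrier citrin, and Slc36a1 (-0.59), a lysosomal proton-coupled carrier, fell less. The count of 0 higher comes from edgeR at the threshold above. It was also 0 at an unadjusted p under 0.05, and 0 with DESeq2 and limma-voom. On total counts alone 1 carrier, and with upper-quartile factors 2, were past the threshold as lower.

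Since several of the 10 genes are ATF4 targets, a list of 22 other ATF4 target genes was set beside them. All 22 were tested, and 14 were higher and 2 lower in MCD livers, with a median log2 fold change of 1.04, beside 19.2% higher, 19.1% lower and a median of -0.10 over all genes tested. With at least 10 counts asked for in every library 6 were higher, since several, such as Phgdh with 2 to 18 and Pycr1 with 2 to 11 counts, lie near the floor in control libraries. Asns, asparagine synthetase, had the largest rise, at 4.06 (SE 0.68, edgeR FDR 1.05e-05), but its MCD levels ran from 1.53 to 43.6 CPM and only 6 of 12 exceeded every control library. Atf3, a stress-induced transcription factor, rose by 3.65 (SE 0.23), and Stc2, a secreted glycoprotein, by 3.13 (SE 0.29), both without overlap. Shmt2 (-0.74), the mitochondrial serine hydroxymethyltransferase, and Vldlr (-1.78), a lipoprotein receptor, fell. Exons of Shmt2, and of Atf5 and Psph among those named next, overlap a gene on the opposite strand. Atf5, Chac1, Cth, Eif4ebp1, Psph and Sesn2 did not pass the threshold. Of the carriers known as ATF4 targets, Slc7a1 (1.71) and Slc7a11 (4.55) rose, as did Slc1a5 (1.91), while Slc3a2, Slc7a5, Slc38a2 and Slc1a4 did not pass the threshold.

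**Figure D5:**
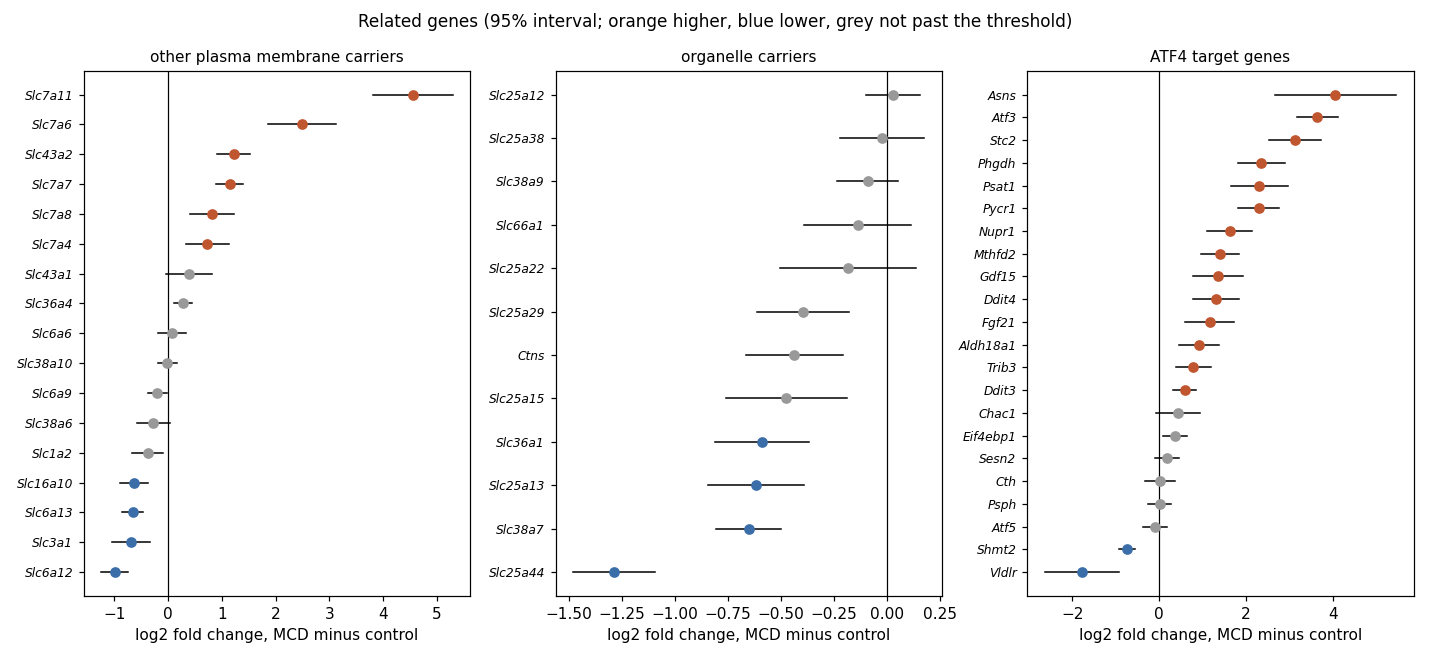
Log2 fold change, MCD minus control, with 95% intervals for the tested genes of 3 lists: further plasma membrane carriers, organelle carriers and ATF4 targets that are not carriers; orange is higher, blue lower and grey not past the threshold, and the horizontal scales differ. Slc7a11 (4.55) leads the first list, Slc25a44 (-1.29) has the largest fall of the second, and 14 of the 22 ATF4 targets are higher.

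Glutamine is carried by Slc38a3, Slc1a5 and Slc38a1, and the enzymes that use it differed in the same measurements. Of 8 glutamine and arginine enzymes tested, 2 rose and 3 fell, beside 19.2% higher and 19.1% lower over all genes tested. Gls2, the liver-type glutaminase, fell by 0.70 on the log2 scale (SE 0.14, edgeR FDR 8.54e-05), from a mean of 465 to 286 CPM. Glud1, glutamate dehydrogenase, fell by 0.70, and Oat, ornithine aminotransferase, fell by 1.25. Glul, glutamine synthetase, differed by -0.08 on the log2 scale (SE 0.12, edgeR FDR 0.553). Exons of Gls2 and Glul overlap those of Spryd4 and Teddm2 on the opposite strand, and their values are uncertain in the same way.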

How the data were processed

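Poly(A) RNA of 24 whole livers had been sequenced. The deposited table holds whole-number counts per gene and library, made by the authors and not normalized. The submitters' processing notes name bcl2fastq, STAR 2.7.3a and mm10, and the counting program and strand setting for the mouse libraries are not given in the sources used here. The study's methods name a stranded TruSeq kit without naming a species, and, for reads aligned to the human genome with the same STAR version, the exon quantification pipeline and PISCES. Of 56205 rows, 51745 were named from GENCODE mouse release 21, and the rows without a name held 0.0808% of counts. Groups came from the labelled diet. Genes were filtered with filterByExpr by diet (14109 kept) and tested with edgeR 4.0.16 (R 4.3.3) by the quasi-likelihood test on TMM-scaled counts, without covariates, with Benjamini-Hochberg adjustment. Calls needed an FDR of at most 0.01 and a log2 fold change beyond 0.5 in either direction. The biological coefficient of variation was 26.8%. Log2 CPM used a prior count of 2. The steps were tested on simulated data. Alternatives were other scaling factors, other filters, DESeq2 1.42.0, limma-voom (limma 3.58.1), the replicate number as a block, a covariate scored from sex-linked genes without assigning any library a sex, other thresholds and leaving out each library. Correlations were computed in Python 3.11.15 with scipy 1.17.1, with 100000 resamples where permuted. The genes named were the 10 transporters, genes of the lists with their values, among them those with the largest changes past the threshold, and the 2 genes most like each transporter among those with a mean of at least 5 CPM. The transporters and the lists were chosen with earlier results of these data known. Some genes that this rule names are not reported here.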

Additional observations from a re-analysis of the deposited data

How the results depend on the processing

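Slc1a5, Slc7a1 and Slc38a1 stayed higher, and Slc38a3 lower, in every alternative that gave a value, with the exception that a requirement of 10 counts in every library removed Slc7a1 and Slc38a1. Slc38a4 was past every threshold but the log2 limit of 1. Over the alternatives that kept all libraries, log2 fold changes ran from 1.91 to 2.26 for Slc1a5, 1.71 to 2.04 for Slc7a1, 1.13 to 1.45 for Slc38a1, -0.98 to -0.63 for Slc38a4 and -1.09 to -0.73 for Slc38a3. On total counts alone Slc7a2 turned to 0.029 and Slc38a2 to 0.12, 5 transporters were higher, all genes gave 4539 higher and 848 lower, 4 genes of the list of amino acid sensing upstream of mTORC1 were higher, and each list (other plasma membrane carriers, organelle carriers, ATF4 targets, sensing, enzymes) had 1 lower gene. Upper-quartile factors gave 1710 lower genes and 2 lower organelle carriers. With only an FDR of 0.05 asked for, 5 transporters were higher, 5221 genes and 7 organelle carriers lower. With a log2 limit of 1, 1 transporter and 686 genes were lower, 1 sensing gene and 1 enzyme higher, 0 other plasma membrane carriers and 0 sensing genes lower, and 1 organelle carrier, 1 ATF4 target and 1 enzyme lower. With at least 10 counts in every library, where fewer genes are tested, 1801 genes, 6 ATF4 targets and 1 enzyme were higher. Fits that each left out a single library gave 3 to 4 transporters higher and 2 lower, and 2701 to 3052 genes higher and 2228 to 2812 lower. Except where the construction of an alternative shows it, the cause was not tested.

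The replicate number as a block gave 2781 higher and 2430 lower genes. The number was not taken to pair the libraries, since not every same-numbered pair deviated together with an r above 0.1: 8 of 12 did (range -0.28 to 0.35, median 0.23, against a median of -0.06 for other pairs), and 2 of 12 control libraries correlated best with their own number. The block changed no call among the 10 transporters.

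Depth limits Slc7a1 and Slc38a1 in control livers, with medians of 19.5 and 48 counts, and Slc7a11, with a median of 1.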

Other observations

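Amino acid levels are sensed at the lysosome by proteins that pass the signal to the kinase complex mTORC1, and 17 of 18 listed sensing genes were tested. In MCD livers 2 were higher and 4 lower, with a median log2 fold change of -0.11 against -0.10 over all genes tested. Of all genes tested 38.3% were called in either direction, so the share among the sensing genes is not above the background, and those named are given as single genes. Rragd, a Rag GTPase, rose by 1.78 (SE 0.30, edgeR FDR 1.46e-05) and Castor2, a relative of the arginine sensor, by 0.78 (SE 0.14). Fnip2 (-0.98), Fnip1 (-0.84) and Flcn (-0.77), which form the folliculin complex that acts on Rag GTPases, fell, as did Sesn3 (-0.78), of the family of leucine sensors. Sesn1, of the same family, differed by 0.49 on the log2 scale (edgeR FDR 6.7e-06), under the fold limit, and was higher in 12 of 12 MCD libraries than in any control library.

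Slc7a5 and Slc38a3 had a Pearson's r of 0.85 among control livers and of -0.60 among MCD livers (12 libraries each, log2 CPM). The pair was picked after the values of all 45 pairs were seen, and the difference between the diets was not tested.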
